A study of Mus musculus with 365 samples.

Results

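Cycling TN cells were set against non-cycling TN cells among single progenitors sorted from mouse bone marrow. The TN (triple negative) cells are 1 of 2 sorted parts of the EPLM compartment, bone marrow progenitors that can give lymphoid and myeloid cells, and the Ly6D+ cells are the other. The classes were chosen by a measured value, the Top2a level of each cell in counts per 1000000 gene reads (CPM): cycling cells had 25 CPM or more and non-cycling cells had less. By this rule 131 of the 213 TN cells were cycling and 82 were non-cycling, out of 365 cells in all. Cycling TN cells numbered 43 on chip 1, 44 on chip 2 and 44 on chip 3, against 32, 25 and 25 non-cycling TN cells on the same chips. The same rule gave 88 cycling and 64 non-cycling Ly6D+ cells on chips 4, 5 and 6. These serve for comparison, and their chips also enter the estimate of spread in the tests. All cells of both parts came from C57BL/6 Flt3Ltg mice, which carry a transgene for Flt3 ligand, so the series holds no cell from a mouse without it. The femoral marrow of 2 mice was pooled, and the sources used here give neither the promoter of the transgene nor which mice were on which chip. Flt3 ligand is a cytokine under which dendritic and lymphoid precursors multiply.

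A dividing cell copies its DNA in S phase and separates the copies in mitosis. Genes for replication are switched on by E2F factors late in G1, and genes for mitosis are switched on later by the MuvB, B-MYB and FOXM1 complexes. Top2a, which encodes the topoisomerase that untangles replicated DNA, belongs to the later set, so a cell with Top2a reads is most often in S phase, G2 or mitosis. A cell without them may be in G1, at rest, or below the detection of the assay. In bone marrow, progenitors divide while they choose among lymphoid, myeloid and dendritic fates, and many mature cells have stopped dividing.

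The promoters of mitotic genes are known for a cell-cycle homology region, with TTTGAA at its core, next to CCAAT boxes bound by NF-Y. Both motifs were searched on both strands in RefSeq promoter windows of assembly GRCm38.p6, from 250 bases before to 50 bases after each start, since the classes were chosen by a division gene. TTTGAA stood in 45 of 72 matched windows of the mitosis list, which is 62.5%, and in 18.1% of all 27025 windows. CCAAT stood in 69.4% of the mitosis windows and in 37.9% of all windows. Both together stood in 51.4% of the mitosis windows and in 7.12% of all windows. Of the 72 matched windows of the DNA replication list, 16.7% held TTTGAA and 59.7% held CCAAT, so CCAAT was frequent in both lists. The E2F-type motif TTGGCGG stood in 23.6% of the replication windows and in 2.77% of all windows. TTGGCGG can overlap CCAAT on the other strand. A match is a description of the letters and not a measured site. The windows of Top2a and of 3 mitotic genes, of Pclaf, a replication gene outside the lists, and of Btg1, a gene lower in cycling cells, are shown from 100 bases before to 10 bases after the start, with TTTGAA and CCAAT in either orientation in capitals.
Top2a, chr11:99024180-99024289, minus strand: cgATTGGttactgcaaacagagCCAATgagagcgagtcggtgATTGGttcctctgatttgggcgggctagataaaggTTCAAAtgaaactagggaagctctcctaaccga
Cdk1, chr10:69352903-69353012, minus strand: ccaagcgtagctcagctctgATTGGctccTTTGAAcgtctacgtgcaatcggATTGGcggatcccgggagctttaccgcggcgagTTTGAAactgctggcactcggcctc
Ccnb2, chr9:70421545-70421654, minus strand: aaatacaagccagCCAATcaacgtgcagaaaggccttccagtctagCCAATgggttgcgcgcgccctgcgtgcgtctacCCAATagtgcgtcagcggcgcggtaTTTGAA
Ube2c, chr2:164769829-164769938, plus strand: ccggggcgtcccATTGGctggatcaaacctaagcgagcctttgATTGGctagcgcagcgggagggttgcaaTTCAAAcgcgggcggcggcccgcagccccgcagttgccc
Pclaf, chr9:65890223-65890332, plus strand: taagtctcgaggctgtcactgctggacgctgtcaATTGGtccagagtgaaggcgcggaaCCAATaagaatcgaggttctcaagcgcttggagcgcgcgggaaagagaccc
Btg1, chr10:96616901-96617010, plus strand: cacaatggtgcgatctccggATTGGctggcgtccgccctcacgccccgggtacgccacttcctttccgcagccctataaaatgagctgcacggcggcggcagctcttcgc

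Top2a separated the cells with few near the threshold. In cycling TN cells it lay between 53.7 and 5316 CPM, with a median of 1095 CPM, and 68 of the 131 cells held 1000 CPM or more. In non-cycling TN cells it lay between 0 and 22.1 CPM, and 69 of the 82 cells had no Top2a read. The cells just above the threshold held 53.7, 59.7 and 62.8 CPM, and the cells just below it held 22.1 and 19.7 CPM. These values chose the classes and were not tested. The cycling class made up 57.3% of the cells of chip 1, 63.8% of chip 2 and 63.8% of chip 3, a mean of 61.6% ± 3.72 (SD, n = 3 chips). On the Ly6D+ chips the mean was 58.5% ± 4.69 (SD, n = 3 chips). The rule fixes these shares, so they are given as a description.

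Mki67, which encodes the Ki-67 coat protein of mitotic chromosomes, was used to check the label. It reached 25 CPM in 104 of 131 cycling TN cells and in 27 of 82 non-cycling TN cells. Summed over the cells of a chip, Mki67 stood at 786, 818 and 738 CPM in cycling TN cells of chips 1, 2 and 3, against 139, 119 and 190 CPM in non-cycling TN cells. Most cells of each class thus carried their label by Mki67 as well, while about 1 in 3 non-cycling cells (32.9%) reached that Mki67 level too. The non-cycling class is defined by low Top2a and was not shown to be at rest.

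**Figure D1:**
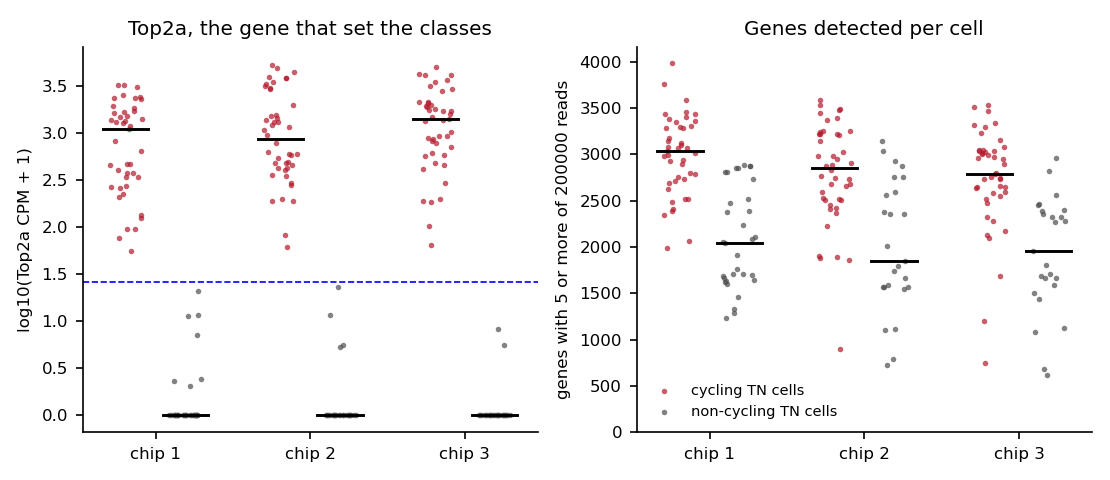
Each point is 1 TN cell, in red for the cycling and in grey for the non-cycling class, by chip, and black bars are medians. The left panel shows log10(Top2a CPM + 1) with the threshold of 25 CPM as a dashed line, and the right panel the genes detected after thinning every cell to 200000 reads, where the cycling medians of 3039, 2851 and 2791 lie above the non-cycling medians of 2050, 1853 and 1959.

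Division genes moved with the gene that chose the classes and are given as a description. Of the 89 genes of a list for mitosis and G2/M, a cycling TN cell held a median of 36 and between 8 and 77, against a median of 8 and between 1 and 44 in non-cycling TN cells. Of the 90 genes of a list for DNA replication and G1/S, the median was 52 in cycling and 13 in non-cycling TN cells. Only 2 of the 82 non-cycling cells reached the cycling median of the mitosis list. Cdk1, the kinase that drives entry into mitosis, had 283, 163 and 203 CPM in the sums of cycling TN cells, against 33.6, 27.9 and 0.668 CPM in non-cycling TN cells. Pclaf, a partner of the replication clamp, had 756, 609 and 867 CPM in cycling TN cells, against 41.3, 30.3 and 192 CPM in non-cycling TN cells. Mcm5, a subunit of the replicative helicase, had 678, 449 and 649 CPM in cycling TN cells, against 197, 206 and 219 CPM in non-cycling TN cells. For all 3 genes every chip was higher in cycling cells and the classes did not overlap.

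Cycling TN cells also held more kinds of transcript. After every cell was thinned to 200000 reads, and a gene counted as detected at 5 or more reads, cycling TN cells held a mean of 2994, 2791 and 2738 genes on chips 1, 2 and 3, against 2092, 2016 and 1927 genes in non-cycling TN cells. The chip means averaged 2841 ± 135 in cycling and 2012 ± 82.6 in non-cycling TN cells (SD, n = 3), a ratio of 1.41. All 3 chips showed the difference, which gave p = 0.25 by a two-sided exact sign-flip permutation test, the smallest p that 3 chips allow. Without thinning the means were 2787 genes in cycling and 1976 in non-cycling cells. The median depth lay between 756190 and 866467 reads per cell in cycling and between 686503 and 748714 reads in non-cycling TN cells. Cells with fewer than 1500 detected genes numbered 3 of 131 in the cycling class and 13 of 82 in the non-cycling class, and cells with more than 3000 numbered 55 in the cycling class and 2 in the non-cycling class. In Ly6D+ cells the ratio was smaller, at 1.20, with means of 2889 ± 113 genes in cycling and 2415 ± 293 in non-cycling cells (SD, n = 3). The difference between the TN and the Ly6D+ effect gave p = 0.1 by a two-sided exact permutation test over 6 chips, the smallest p that this design allows.

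This difference bears on all that follows, so each gene is given on both of the scales used. The first is the sum of reads over the cells of a chip and class, in CPM with TMM scaling, tested by edgeR with the chip as a block. Cells with much of a transcript weigh most there. The second is the mean over cells of log2(CPM + 1), tested by limma with the chip as a block, where each cell weighs the same and a gene found in more cells scores higher. The median over all 8546 tested genes was a log2 fold change of 0.11 on the first scale, but a difference of 0.64 on the second. For part of the genes, values are also given for the TN cells with 2000 to 3000 detected genes. These are 67 cycling and 39 non-cycling cells, in which the median of all genes was 0.11 on the second scale. That comparison was added after the data were seen. The replicate is the chip, so a p-value reflects how chips vary, and that variation may be technical. The test planned as the main one was edgeR on the sums, and limma on cell means was planned as an alternative to it. Both tests estimated the spread from the TN and Ly6D+ chips together.

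Btg1 and Id2 fell in cycling TN cells, the only calls of edgeR's quasi-likelihood test on the sums (2 of 8546 genes, 0.0234%, both lower, Benjamini-Hochberg adjusted p under 0.05). At an unadjusted p under 0.05 there were 664 genes, 386 higher and 278 lower. Btg1 encodes an antiproliferative protein that recruits the deadenylase complex to messenger RNA. It had 378, 699 and 905 CPM in cycling TN cells of chips 1, 2 and 3, against 1648, 2303 and 3155 CPM in non-cycling TN cells. The classes did not overlap, and the level was 3.69-fold lower in cycling cells (log2 fold change -1.88 ± 0.17 SE, edgeR adjusted p = 0.033). Id2 encodes an inhibitor of E proteins that is known for its part in dendritic cell, innate lymphoid and natural killer cell fates. It had 212, 455 and 493 CPM in cycling TN cells, against 1027, 2049 and 3241 CPM in non-cycling TN cells, with no overlap (log2 fold change -2.39 ± 0.25 SE, edgeR adjusted p = 0.0451). Id2 was found in 35.9% ± 4.63 of cycling and 61.4% ± 6.00 of non-cycling TN cells (SD, n = 3 chips).

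Both calls lay close to the threshold and rested on the pairing of classes by chip: without the chip as a block the adjusted p was 0.297 for Btg1 and 0.274 for Id2 by edgeR. They were also lost without any 1 of the 3 TN chips (adjusted p between 0.111 and 0.566 for Btg1 and between 0.199 and 0.566 for Id2), with log2 fold changes between -2.51 and -1.77. The main fit takes its spread from the Ly6D+ chips as well. With the TN sums alone the edgeR adjusted p was 0.0896 for Btg1 and for Id2, and neither was called. Without the cells that carry H2-Aa the log2 fold change was -1.49 for Btg1 and -1.22 for Id2 (edgeR adjusted p = 0.306 and 0.567). In the cells with 2000 to 3000 detected genes the log2 fold change was -0.19 for Btg1 and -0.60 for Id2 (edgeR adjusted p = 1.0 for both). Btg2, a relative of Btg1 and a target of p53, had 691, 763 and 865 CPM in cycling TN cells, against 2344, 2790 and 2134 CPM in non-cycling TN cells, without overlap (log2 fold change -1.65 ± 0.24 SE, edgeR adjusted p = 0.136). Nearly all cells of both classes held Btg1, at 91.6% of cycling and 97.9% of non-cycling cells, so its difference was one of level.

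With each cell weighted the same, limma called 2145 genes higher in cycling TN cells (25.1% of those tested) and 34 genes lower (0.398%). The excess of higher genes stood beside the larger number of genes detected per cell, whose part in it was not tested. Of the division genes, which the rule all but fixes, 172 of 179 were among the higher. The 34 lower genes ran against the shift of all genes. All 34 had a negative log2 fold change on the sums as well, and 26 of them had no overlap between the classes, where 7.5% of all genes were lower without overlap. Both scales use the same cells, so this is no separate support. By role they were genes of antigen presentation (H2-Aa, H2-Ab1, H2-Eb1, Cd74, Ciita), dendritic cell genes (Batf3, Plbd1, Naaa), T and innate lymphoid genes (Tcf7, Gata3, Cd7, Ccl5), Id2, Btg1, Kit and others such as Lgals3, Anxa1, Rgs1 and Samd9l. Names beyond the fixed list of genes were chosen after the values were seen. In the cells with 2000 to 3000 detected genes 27 of the 34 could be tested, 24 of them had a negative difference and none was called by limma. With each cell centred on its own mean, all 34 were still called lower by limma. That setting called 437 genes lower and 471 higher, and the median difference of all genes was -0.15.

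**Figure D2:**
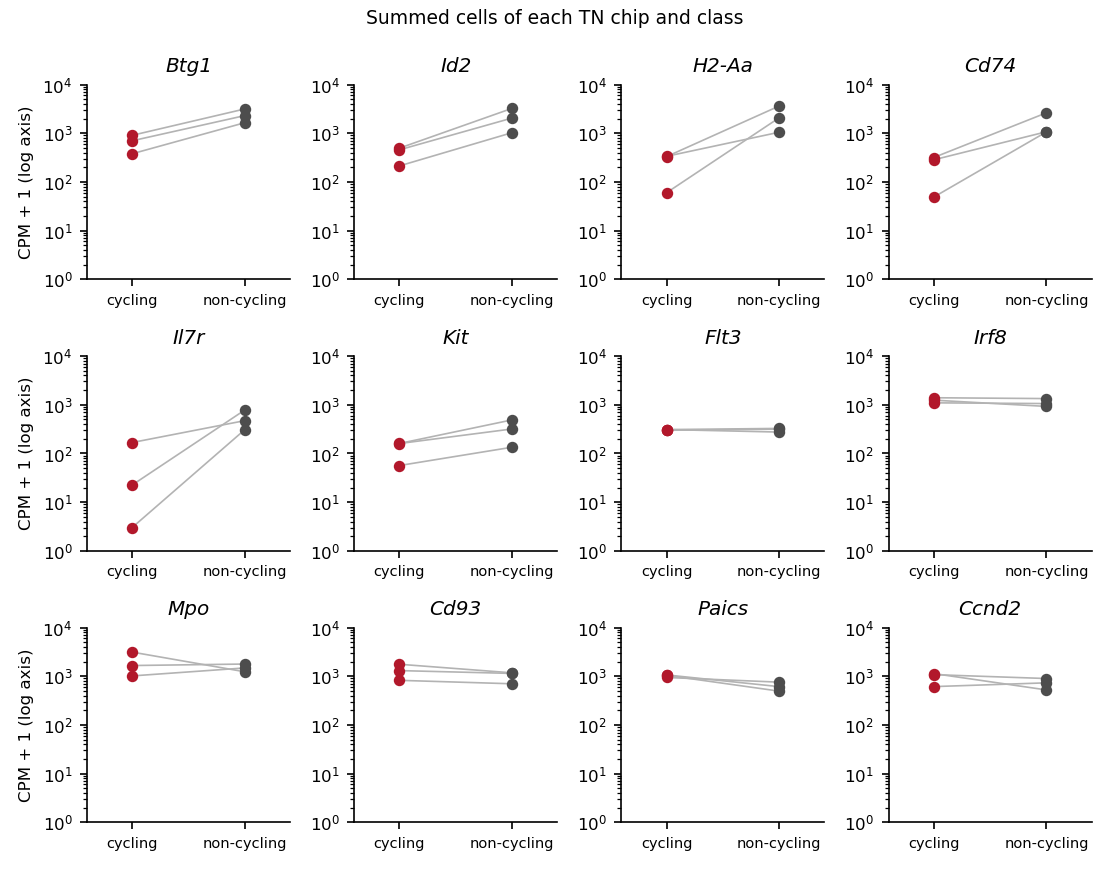
The panels show 12 genes in the summed cells of each TN chip, in CPM + 1 on a log axis, with cycling cells in red on the left, non-cycling cells in grey on the right and a line for each chip. All 3 chips were lower in cycling cells for Btg1, Id2, H2-Aa, Cd74, Il7r and Kit, while Flt3 stood between 298 and 308 CPM in cycling and between 274 and 325 CPM in non-cycling cells.

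MHC class II genes were lower in cycling TN cells. These genes present peptides to helper T cells, and the series' TN cells carry them in a part of the cells. Of 10 tested members, 0 were called higher and 5 lower by limma, where 0.398% of all genes were called lower, and the list's median difference was -1.40 against 0.64 over all genes. On the sums, all 10 had a negative log2 fold change, with a median of -2.81 against 0.11 over all genes, and 8 of 10 did not overlap between the classes, against 7.5% of all genes in that direction. None of the 10 passed edgeR's test. H2-Aa, the alpha chain of I-A, had 59.0, 330.05 and 335 CPM in cycling TN cells, against 2082, 3626 and 1049 CPM in non-cycling TN cells (difference of the cell means -3.25 ± 0.51 SE, limma adjusted p = 6.6e-05). Cd74, the invariant chain, had 47.8, 316 and 284 CPM in cycling TN cells, against 1065, 2625 and 1072 CPM in non-cycling TN cells (limma adjusted p = 0.000504). Ciita, the transactivator that switches class II genes on, had 13.7, 1.10 and 4.02 CPM in cycling TN cells, against 151, 360.2 and 299.7 CPM in non-cycling TN cells (limma adjusted p = 0.00046). Chip by chip, every one of these genes was lower in cycling cells.

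Fewer cycling than non-cycling cells carried the class II gene H2-Aa. H2-Aa was detected in 16.3%, 18.2% and 13.6% of cycling TN cells on chips 1, 2 and 3, against 37.5%, 52% and 36% of non-cycling TN cells. Of the 55 TN cells with H2-Aa, 21 were cycling. Those 21 cycling cells held a median of 37 mitosis genes, so cells were found with both class II and mitosis transcripts; doublets were not called. The 34 non-cycling cells with H2-Aa held a median of 1669 detected genes, fewer than the 2532 of the 21 cycling ones. Among cells with 2000 to 3000 detected genes, H2-Aa was detected in 14.9% of cycling and 16.1% of non-cycling cells, and its difference was 0.17 with a limma adjusted p of 0.961. Cd74 stayed lower there on each chip, at a mean of 36.1% of cycling and 51.8% of non-cycling cells. With each cell centred on its own mean, limma called 9 of the 10 tested MHC class II genes lower, against 437 of all 8546 genes. The part of the number of detected genes in the class II difference was not tested.

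Of 23 tested genes of conventional dendritic cells, 3 were called higher and 6 lower by limma, which is 13.04% higher against 25.1% of all genes, where 0.398% of all genes were lower. The 6 were Id2, Cd7, Batf3, Plbd1, Ckb and Naaa. The list is not separate from the lymphoid genes: Id2 is counted again in the T and innate lymphoid list, and Cd7 is placed above with those genes by role. Batf3, a transcription factor of cross-presenting dendritic cells, had 8.59, 23.4 and 30.2 CPM in cycling TN cells, against 51.4, 54.3 and 266 CPM in non-cycling TN cells (limma adjusted p = 0.00033). Cst3, the cystatin that dendritic cells make in quantity, was found in 97.7% of cycling and 74.2% of non-cycling cells, but its sums were 1124, 921 and 1645 CPM in cycling TN cells, against 2942, 5083 and 2272 CPM in non-cycling TN cells. Cst3 passed neither test (edgeR adjusted p = 0.349, limma adjusted p = 0.104). More cycling cells thus held Cst3, at a lower summed level. Itgax, which encodes CD11c, was at 18.6, 2.27 and 11.4% of cycling cells and 6.25, 8 and 8% of non-cycling cells, with no common direction.

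Among genes of T and innate lymphoid cells, Id2, Gata3 and Tcf7 fell in cycling TN cells by limma. Of 13 tested members these 3 were called lower and 0 higher, against 0.398% lower and 25.1% higher of all genes, and the median log2 fold change of the sums was -1.89 against 0.11 over all genes. Gata3, a factor of T helper and innate lymphoid cells, was detected in 2.33%, 9.09% and 0% of cycling TN cells, against 28.1%, 12% and 28% of non-cycling TN cells, and its limma adjusted p was 0.0037. The 0 of 44 cycling cells on chip 3 allows a share of up to 6.82%, by counting error alone. Tcf7, which encodes TCF-1, was detected in 2.33%, 9.09% and 0% of cycling TN cells, against 34.4%, 8% and 24% of non-cycling TN cells (limma adjusted p = 0.0032). Tcf7 was thus lower in cycling cells on chips 1 and 3 but not on chip 2. Of the 33 TN cells with Tcf7 or Gata3, 7 were cycling, and 6 of those 7 were on chip 2. Defining T cell genes stayed near 0: Cd3e had no read in any TN cell, and Bcl11b had reads in 0 cycling and 2 non-cycling cells. In the cells with 2000 to 3000 detected genes, Gata3 differed by -0.85 (limma adjusted p = 0.707) and Tcf7 by -0.05 (limma adjusted p = 0.986).

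Granulocyte and monocyte genes had more higher calls by limma than all genes, but no common direction of their summed level. Of 30 tested members, 13 were called higher by limma and 0 lower, which is 43.3% against 25.1% of all genes, with a median difference of 0.81 against 0.64. The list summed to 9186, 7426 and 13859 CPM in cycling TN cells of chips 1, 2 and 3, against 8928, 8123 and 11305 CPM in non-cycling TN cells. In the cells with 2000 to 3000 detected genes limma called 1 of 32 members higher, where 0.786% of all genes were. Prtn3, the protease of primary granules, was detected in 55.8%, 36.4% and 54.5% of cycling TN cells, against 18.8%, 16% and 24% of non-cycling TN cells (limma adjusted p = 0.0002). Mpo, the myeloperoxidase of the same granules, was detected in 44.2%, 31.8% and 38.6% of cycling TN cells, against 18.8%, 28% and 32% of non-cycling TN cells (limma adjusted p = 0.048). The summed level of Mpo did not follow, at 1657, 1014 and 3126 CPM in cycling TN cells against 1778, 1479 and 1232 CPM in non-cycling TN cells, and the classes overlapped (edgeR adjusted p = 0.97). More cycling cells carried Mpo and Prtn3, while the summed Mpo level did not differ beyond the spread between chips. Among cells with 2000 to 3000 detected genes Prtn3 was still in more cycling cells on each chip, at a mean of 45.3% against 29.5%, while Mpo was at 33.1% of cycling and 42.3% of non-cycling cells. The neutrophil genes S100a8, S100a9, Camp and Ltf had no read in any TN cell. The 13 genes found of the mature neutrophil list summed to 31.6, 18.7 and 9.03 CPM in cycling TN cells, against 99.7, 78.0 and 124 CPM in non-cycling TN cells, and only Itgam could be tested, with no call.

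The cycling share was also counted among cells that carried a lineage gene. The groups share cells. Of the TN cells with Mpo or Prtn3, 79 were cycling and 26 non-cycling, a cycling share of 75.2%, with 78.9%, 76.7% and 70.3% on chips 1, 2 and 3. Of the 55 cells with H2-Aa, 38.2% were cycling, with 36.8%, 38.1% and 40% on the chips. Of the 65 cells with Dntt, 61.5% were cycling, with 59.1%, 75% and 47.4% on the chips. Of the 33 cells with Tcf7 or Gata3, 21.2% were cycling, with 7.14%, 66.7% and 0% on the chips, so that group was not alike across chips. The 24 cells with none of these 6 genes were cycling at 75%. On each chip the share among Mpo or Prtn3 cells was above that among H2-Aa cells. The groups also differed in detected genes, whose number moved with the class. Medians were 3005 in cycling and 2537.5 in non-cycling cells with Mpo or Prtn3, against 2532 and 1669 in those with H2-Aa. The part of detected genes in these shares was not tested. The 13 cells with H2-Aa and also Mpo or Prtn3 were cycling at 69.2%, as were the 13 cells with H2-Aa and Dntt, and the 26 cells with Dntt and also Mpo or Prtn3 at 57.7%.

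**Figure D3:**
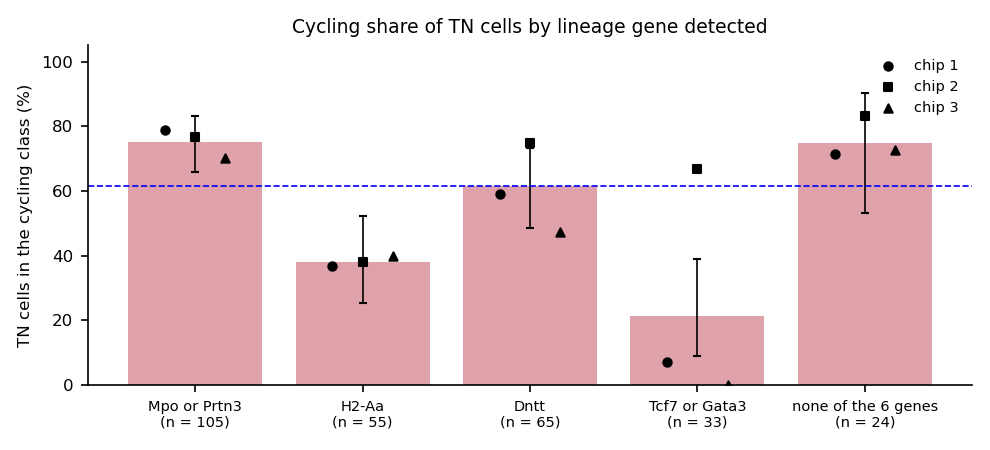
Bars show the percentage of TN cells in the cycling class among cells with the lineage gene named, whiskers the exact 95% binomial interval, which covers counting error only, points the 3 chips and the dashed line the share of all TN cells. The share was 75.2% with Mpo or Prtn3 and 38.2% with H2-Aa, groups that also differed in detected genes per cell.

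Irf8 was carried by more cycling than non-cycling TN cells on every chip. It encodes a transcription factor of dendritic cells and monocytes that is already active in their progenitors. It was detected in 93.0%, 84.1% and 97.7% of cycling TN cells, against 46.9%, 64% and 84% of non-cycling TN cells (difference of the cell means 2.67 ± 0.43 SE, limma adjusted p = 9.6e-05). The difference held in the cells with 2000 to 3000 detected genes, at 2.94 with a limma adjusted p of 0.00536, and the mean shares there were 92.1% of cycling and 68.8% of non-cycling cells. The summed level was 1240, 1092 and 1390 CPM in cycling and 922, 1055 and 1336 CPM in non-cycling TN cells, a log2 fold change of 0.18 that edgeR did not call. Plasmacytoid dendritic cell genes as a list showed 5 of 18 called higher by limma, 27.8% against 25.1% of all genes, a share near the background. Siglech, their surface lectin, was in 14.0%, 9.09% and 11.4% of cycling and 3.13%, 8% and 4% of non-cycling TN cells, and its limma adjusted p was 0.33.

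Single lymphoid genes gave no common direction, while the early lymphoid and B-lineage lists each summed lower in cycling TN cells on each chip. Dntt, the terminal transferase of lymphoid progenitors, was detected in 30.2%, 40.9% and 20.5% of cycling TN cells, against 28.1%, 24% and 40% of non-cycling TN cells, and neither test called it over all cells (limma adjusted p = 0.728). In the cells with 2000 to 3000 detected genes it fell in cycling cells, with a difference of -3.03 (limma adjusted p = 0.00406), being found in 27.9% of cycling and 53.8% of non-cycling cells there. Il7r, the interleukin 7 receptor alpha chain, had 21.5, 167 and 2.02 CPM in cycling TN cells, against 782, 471 and 309 CPM in non-cycling TN cells, without overlap. It was found in 9.92% ± 7.97 of cycling and 22.7% ± 6.16 of non-cycling TN cells (SD, n = 3), and neither test called it (edgeR adjusted p = 0.449, limma adjusted p = 0.095). Among cells with 2000 to 3000 detected genes Il7r was at 8.58% of cycling and 21.4% of non-cycling cells, lower on each chip. Of 25 tested early lymphoid genes, 8 were called higher and 0 lower by limma, 32% against 25.1% of all genes. The early lymphoid list summed to 4575, 5358 and 3467 CPM in cycling TN cells, against 7178, 5612 and 5024 CPM in non-cycling TN cells. B-lineage genes were 0 higher and 0 lower of 9 tested, and Pax5 had reads in 0 cycling and 1 non-cycling TN cell. The B-lineage list summed to 725, 775 and 1004 CPM in cycling TN cells, against 1081, 2440 and 1150 CPM in non-cycling TN cells. The median log2 fold changes of the 2 lists were -0.30 and -0.24, against 0.11 over all genes, and edgeR called no member of either.

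Few growth factor receptors were called. Of 37 tested members, 4 were called higher and 1 lower by limma, 10.8% higher against 25.1% of all genes. The list summed to 2435, 2848 and 2298 CPM in cycling TN cells, against 3996, 5306 and 3327 CPM in non-cycling TN cells. Its sum was thus lower on each chip, while its median log2 fold change was 0.03, against 0.11 over all genes. Flt3, the receptor for the transgene's ligand, had 298, 308 and 308 CPM in the sums of cycling TN cells, against 315, 325 and 274 CPM in non-cycling TN cells, a log2 fold change of 0.00 ± 0.25 SE. It was found in 64.9% ± 7.06 of cycling and 47.6% ± 0.65 of non-cycling TN cells (SD, n = 3). Csf1r, the receptor for macrophage colony-stimulating factor, was found in 51.2%, 25% and 43.2% of cycling TN cells, against 3.13%, 24% and 20% of non-cycling TN cells (limma adjusted p = 0.0071), while its sums overlapped. Among cells with 2000 to 3000 detected genes Csf1r was still in more cycling cells on each chip, at a mean of 42.4% against 20.3%. Kit, the stem cell factor receptor, was the single receptor on the list called lower. It had 159, 159 and 55.5 CPM in cycling TN cells, against 317, 488 and 133 CPM in non-cycling TN cells (difference of the cell means -1.38 ± 0.50 SE, limma adjusted p = 0.042, edgeR adjusted p = 0.712). On each chip Kit was lower in cycling cells, though the ranges of the chips overlapped. Kit was at 29.4% of cycling and 50.2% of non-cycling cells among those with 2000 to 3000 detected genes, a difference of -1.71 that limma did not call (adjusted p = 0.434).

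Cd34, Cd44 and Tfrc were called higher in cycling TN cells over all cells by limma. Cd34, the sialomucin of progenitors, was found in 62.8%, 59.1% and 61.4% of cycling TN cells, against 40.6%, 32% and 40% of non-cycling TN cells (limma adjusted p = 0.0045). In the cells with 2000 to 3000 detected genes it was instead in 56.3% of cycling and 67.7% of non-cycling cells, lower on each chip, and limma did not call it there (adjusted p = 0.467). Cd44, the hyaluronan receptor, was found in 90.03% ± 5.46 of cycling and 60.25% ± 8.38 of non-cycling TN cells, with sums of 672, 667 and 639 CPM against 463, 425 and 534 CPM and no overlap (limma adjusted p = 0.00017). Tfrc, the transferrin receptor that brings in iron, had 564, 826 and 668 CPM in cycling TN cells, against 479.9, 464 and 362 CPM in non-cycling TN cells, without overlap (limma adjusted p = 2.3e-05). Neither Cd44 nor Tfrc was called by limma in the cells with 2000 to 3000 detected genes (adjusted p = 0.248 and 0.76).

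**Figure D4:**
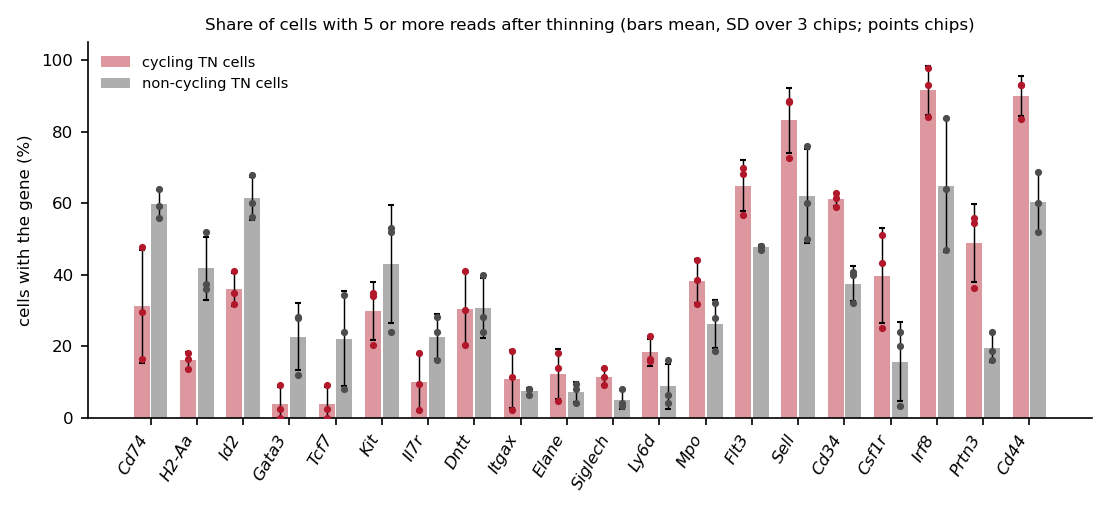
Bars show the mean percentage of TN cells with 5 or more of 200000 thinned reads of each gene, red for cycling and grey for non-cycling cells, with the SD over 3 chips and a point for each chip. Of the 20 genes, 9 were higher and 6 lower in cycling cells on all 3 chips, each with p = 0.25 by the exact sign-flip test, the smallest possible (adjusted p = 0.333 over the 20).

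Many members of several metabolic lists were called higher when all cells were used. Proteasome subunits, which degrade tagged proteins, had 29 of 37 called higher by limma (78.4% against 25.1% of all genes), and oxidative phosphorylation had 47 of 73. Nucleotide and one-carbon metabolism had 25 of 45, the TCA cycle 15 of 25, glycolysis 8 of 18, and nuclear transport 27 of 34. Cholesterol and fatty acid synthesis had 7 of 30, 23.3%, close to all genes. No member of these lists was called lower. On the sums these lists stood close to all genes, with median log2 fold changes of 0.10 for the proteasome, 0.02 for oxidative phosphorylation, 0.37 for nucleotide metabolism and 0.27 for the TCA cycle, against 0.11 over all genes. Nuclear transport was farther out at 0.96, and chromatin modifiers at 0.44. In the cells with 2000 to 3000 detected genes, where 0.786% of all genes were called higher, none of the proteasome, oxidative phosphorylation, TCA cycle, glycolysis or nuclear transport members was called, and the medians were 0.28, 0.11, -0.09, 0.37 and 0.89 against 0.11 over all genes. The number of detected genes thus moved with the metabolic calls, and its part in them was not tested.

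Inside the range of 2000 to 3000 detected genes the cycling cells still held somewhat more genes, with medians of 2713, 2684 and 2647 on chips 1, 2 and 3, against 2518, 2578 and 2395 in non-cycling cells. Paics, an enzyme of purine synthesis, had 1063, 943 and 1043 CPM in cycling TN cells, against 610.1, 754 and 493 CPM in non-cycling TN cells, and limma called it in all cells (difference 3.62) and in those with 2000 to 3000 detected genes (1.95, adjusted p = 0.0286). Ucp2, a mitochondrial carrier, was called there with a difference of 2.14 (limma adjusted p = 0.0135), though its sums were 665, 652 and 875 CPM in cycling against 518, 631 and 671 CPM in non-cycling TN cells. Cbx5, the heterochromatin protein HP1 alpha, and Rbbp4, a histone chaperone, were called there too, with differences of 2.15 and 1.85. Of the 66 genes called higher in those cells, 45 were division genes by the lists and 21 were not. The 4 genes called lower there (0.0476% of those tested) were Dntt, Cd69, an early activation marker, Gimap6, a lymphocyte GTPase, and Srgn, the proteoglycan serglycin. Cd69 differed by -1.98, Gimap6 by -2.59 and Srgn by -1.39 in these cells. Over all TN cells the difference of Cd69 was 0.997 on the limma scale, and its sums were 1416, 934 and 1516 CPM in cycling against 2946, 1131 and 2674 CPM in non-cycling TN cells.

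**Figure D5:**
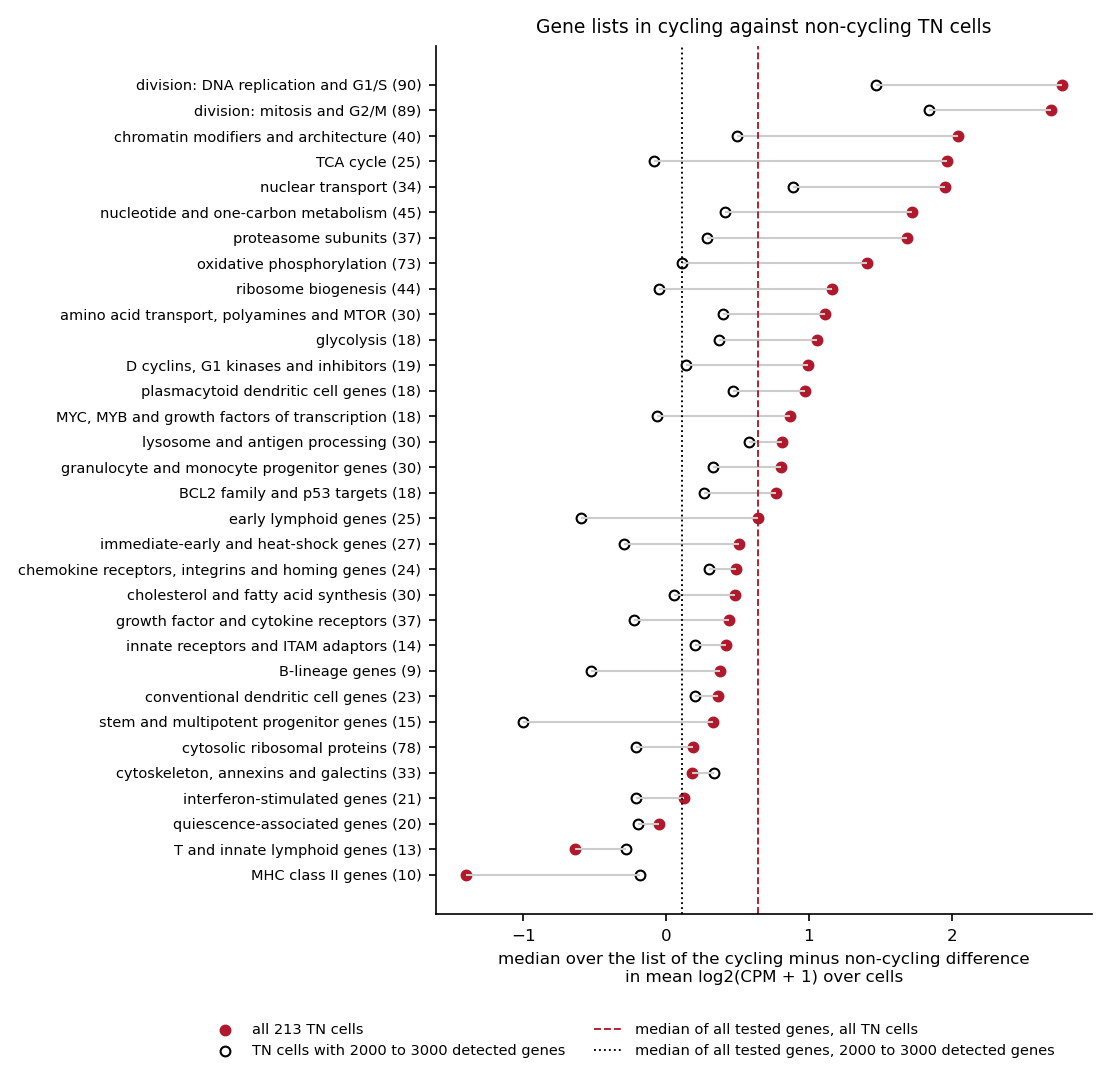
Each row is a gene list with its number of tested genes, and the x axis is the median difference of cycling minus non-cycling TN cells in mean log2(CPM + 1). Filled points use all TN cells and open points the cells with 2000 to 3000 detected genes; the division lists stand apart in both, and the MHC class II list at -1.40 moves to -0.18.

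Among the D cyclins, which drive cells through G1, limma called 1 of 3 higher, where 25.1% of all genes were, and edgeR called none. For 3 genes that is near the share of all genes. Ccnd2 had 1133, 1077 and 612 CPM in cycling TN cells, against 522, 896 and 731 CPM in non-cycling TN cells, and the classes overlapped on the sums, while limma called it higher over all cells (adjusted p = 0.0019). Ccnd1 had 301, 197 and 197 CPM in cycling against 139, 475 and 469 CPM in non-cycling TN cells, lower on chips 2 and 3 and higher on chip 1, and neither test called it. Ccnd3 had 102, 124 and 85.9 CPM in cycling against 84.7, 81.5 and 113 CPM in non-cycling TN cells, with overlap and no call. Cdk4, their kinase partner, was called higher by limma (adjusted p = 0.00053) but not in the cells with 2000 to 3000 detected genes (adjusted p = 0.724). Cdkn1b, the inhibitor p27, had 20.6, 39.1 and 27.6 CPM in cycling TN cells, against 45.1, 101 and 96.1 CPM in non-cycling TN cells, without overlap, and neither test called it (edgeR adjusted p = 0.697). Cdkn1a, the inhibitor p21, was higher in cycling cells instead, at 86.6, 75.4 and 83.0 CPM against 65.5, 30.2 and 66.6 CPM, and limma called it (adjusted p = 0.0027). Myc had 155, 206 and 158 CPM in cycling against 138, 199 and 125 CPM in non-cycling TN cells, and neither test called it. Genes associated with quiescence had 2 members higher and 1 lower of 20 by limma, against 25.1% higher and 0.398% lower of all genes, with a median log2 fold change of -0.82 on the sums against 0.11 over all genes, and Btg1 was their 1 lower member.

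Cytosolic ribosomal protein genes stood apart from the metabolic lists. Their median log2 fold change on the sums was -0.19, against 0.11 over all genes, a difference that does not depend on the scaling. With library sizes alone in place of TMM the median of all genes was 0.26, so changes near 0 are read against that shift. Limma called 2 of the 78 ribosomal genes higher and 0 lower, 2.56% against 25.1% of all genes. Of 79 listed, a mean of 70.7 ± 1.04 were detected in a cycling and 68.3 ± 1.31 in a non-cycling TN cell (SD, n = 3 chips). Interferon-stimulated genes had a median log2 fold change of -0.87 and 1 of 21 called higher by limma. The cytoskeleton, annexin and galectin list had a median of -0.77, with 4 of 33 called higher and 2 lower by limma. edgeR called no member of these lists.

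In Ly6D+ cells limma called 690 genes higher (8.07%) and 24 lower (0.281%) in cycling cells, and edgeR called 0 genes. Some shifts had the same direction in both parts. On the sums, genes associated with quiescence had a median log2 fold change of -0.63 in Ly6D+ and -0.82 in TN cells. Cytosolic ribosomal protein genes stood at -0.18 and -0.19. Irf8 was found in 73.4% of cycling and 60.9% of non-cycling Ly6D+ cells and Cd34 in 43.8% and 34.4%, both higher on each Ly6D+ chip. Of the 34 genes lower in cycling TN cells, 1 was also called lower in Ly6D+ cells, Tcp11l2. H2-Aa was found in 13.2% of cycling and 10.95% of non-cycling Ly6D+ cells, and Id2 in 37.99% of cycling and 36.4% of non-cycling Ly6D+ cells. On chips 4, 5 and 6 the MHC class II list summed to 910, 1069 and 680 CPM in cycling Ly6D+ cells. The non-cycling cells of these chips had 645, 2634 and 1923 CPM. The list was thus lower in cycling cells on chips 5 and 6 and higher on chip 4. Conventional dendritic cell genes summed to 3098, 2900 and 3066 CPM in cycling, against 3880, 3843 and 4189 CPM in non-cycling Ly6D+ cells. The limma difference for Id2 was -3.46 in TN and -0.21 in Ly6D+ cells, and that for Btg1 was -1.80 and -0.02. The H2-Aa, Id2 and Btg1 differences did not pass the test of the difference between the 2 contrasts (limma adjusted p = 0.154, 0.201 and 0.201). edgeR's test of that difference called 0 genes, with 383 at an unadjusted p under 0.05, and limma called 2 (0.0234%). They were Cd93, the C1q receptor of early progenitors, and Sh2d5. Cd93 was found in 87.0% of cycling and 50% of non-cycling TN cells, with a limma difference of 3.63, against 0.23 in Ly6D+ cells (adjusted p of the difference = 0.00271). Its sums in TN cells overlapped, at 823, 1304 and 1760 CPM in cycling against 699, 1141 and 1173 CPM in non-cycling cells.

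Markers of the sort and of other cell types bear on how uniform the classes are. The TN label names negative markers that the sources used here do not list, and Ly6d reads were nevertheless found in 18.3% ± 3.83 of cycling and 8.75% ± 6.38 of non-cycling TN cells (SD, n = 3), with chips that overlap. Of the other cell types checked, no TN cell had a read of Cd3e, Hbb-bs, Gata1, Klf1, Pf4, Fcer1a or S100a8. Cd79b, which early progenitors also carry, had reads in 54 cycling and 26 non-cycling cells. Klrb1c had reads in 2 cycling cells and Mcpt8, a basophil protease, in 7 cycling and 2 non-cycling cells. Cpa3, a mast cell protease, had reads in 6 cycling and 8 non-cycling cells. The mast cell and basophil list summed to 54.1, 79.0 and 56.4 CPM in cycling TN cells, against 206, 0.581 and 428 CPM in non-cycling TN cells. Xist reached 25 CPM in 19.1% of cycling and 19.5% of non-cycling TN cells and in no Ly6D+ cell. The kit does not mark strand, so antisense transcripts are counted with the gene they overlap.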

How the data were processed

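Single cells were captured on Fluidigm C1 chips and their cDNA was amplified by template switching, per the labels' protocols. The authors deposited raw read counts per gene and cell, and mm9 and R 3.2.0 are named in the submitters' processing notes (aligner and counter: not given in the sources used here). Filters on cells were the authors'. Doublets were not called. Counts were summed per chip and class (12 sums of 365 cells; no 2 cells held the same counts) and edgeR 4.0.16 (R 4.3.3) tested the sums, with TMM scaling and chip as a block, for genes past filterByExpr and with 25 CPM in 5% of TN cells (8546 genes; Top2a left out). limma 3.58.1 tested mean log2(CPM + 1) over cells. It and DESeq2 1.42.0 were planned as alternatives to edgeR, and the limma fits under other settings were added after the data were seen. Standard errors for edgeR are the absolute log2 fold change over the square root of F. The steps were tested on simulated data. Cells were thinned to 200000 reads (seed 1). The chip pairs the classes because both were on it, and deviations of the 2 classes of a TN chip correlated at 0.03 to 0.09 across genes. Summed reads per TN chip were 32.4 to 37.6 (in units of 1000000) for cycling and 18.2 to 23.9 for non-cycling cells. Symbols for 23334 of 23427 genes came from a RefSeq table of GRCm38.p6. Named genes were a fixed list, called genes with the largest changes and up to 3 called members of each of 36 gene lists; Cdkn2c, Mycn, Ebf1 and Gapdh of the fixed list were too low to test or not found. The classes, members and lists were chosen with earlier results of these data known. Intervals cover counting error only.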

Additional observations from a re-analysis of the deposited data

Results flagged for a closer look

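The genes Cd93, Sh2d5, Cst3 and Gata3 stood out in the comparison of the TN with the Ly6D+ contrast of cycling against non-cycling cells. For Cd93 the limma difference in TN cells exceeded that in Ly6D+ cells by 3.404 on the mean log2(CPM + 1) scale, and limma's test of that difference passed (adjusted p = 0.00271). For Sh2d5 the excess was 3.84 (limma adjusted p = 0.0493): limma's difference was 1.25 in TN cells and -2.59 in Ly6D+ cells, with cycling cells higher on all 3 TN chips on that scale. Cst3 was lower in cycling cells on all 3 TN chips and higher on all 3 Ly6D+ chips, with log2 fold changes on the sums that differed by -1.58, and Gata3 did the same, with a difference of -5.35. For Cst3 and Gata3 the opposite directions are what drew attention, and edgeR's test of the difference did not pass (adjusted p = 1.0 for both). Gata3 had sums between 8.65 and 34.4 CPM in the Ly6D+ classes and no read in the cycling TN cells of chip 3, so its fitted value depends on the prior count.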

How the results depend on the processing

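The count of genes called on the sums (2) was 442 with DESeq2 and 2179 with limma on cell means. It was 0 with library sizes alone, with TN sums alone, without the tenth of cells with most detected genes, without cells with Mpo or Prtn3, without cells with H2-Aa, without cells with Xist and in cells with 2000 to 3000 detected genes. It was 1 with cells classed by Mki67 (Mki67 itself, which chose those classes), 1 with cells thinned (Btg1), 1 without cells under 1500 detected genes (Pclaf), 4 with strict classes by Top2a and Mki67 (Btg1, Id2, Nusap1 and Mki67 itself), 8 with no replicate block, 0 of them shared with the 2, 8 with genes in 20% of TN cells, which held both, and 0 to 1 without a replicate (Pclaf). The TN against Ly6D+ count was 123 with DESeq2. The limma count of 2179 was 1030 with cells classed by Mki67, 1292 without cells under 1500 detected genes, 1426 without the tenth of cells with most detected genes, 754 without cells with H2-Aa, 70 in cells with 2000 to 3000 detected genes, 908 with each cell centred on its own mean (471 higher and 437 lower, against 2145 and 34), and 824 to 1243 without a replicate; with no replicate block it was 1615. Genes detected per cell differed by 1145 at 1 or more thinned reads, against 829. Of the 20 shares, 9 higher on all chips became 3 in cells with 2000 to 3000 detected genes. Csf2rb and Myb changed sign under limma and were called there (1.19 and 1.72, against -0.11 and -0.56 in edgeR). The cause was not tested. Of 1235 values of 50 named genes under other settings, 1141 kept their sign and 94 did not. Only 21 of the 50 genes kept their sign under every setting. The smallest p of 3 chips, 0.25, limits the shares.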
